A study of Mus musculus with 35 samples.

Results

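AP-1 is the dimeric transcription factor built from Fos, Jun and Atf proteins, and immediate early genes are those that cells switch on within minutes of a stimulus, before new protein is made. A list of 10 such genes was followed here among the 36106 genes of the deposited table: Fos, Fosb, Fosl1, Jun, Junb, Atf3, Egr1, Nr4a1, Nr4a3 and Ptgs2. The genes were taken by name, and all 10 were found and passed the filter on low counts in each of the 12 comparisons. RNA had been sequenced in bulk from 35 samples of skin. They came from 19 female mice of C57BL/6J, a standard inbred strain, aged 10 weeks. The left flank had received 25 Gy at 3.6 Gy per min over 420 seconds, and the treated skin was shaved afterwards. Samples of radiated and of control skin were taken 1, 2, 3 and 4 weeks later, 4 of each kind per week. The sham skin came from 3 further mice without radiation. The sample titles give no week for sham skin, so time and treatment cannot be told apart in comparisons with it. No transgene, drug or mutant allele is named for any group. The protocol does not state where on the body control skin was taken, nor whether control and sham skin were shaved in the same way. The mice numbered alike in the radiated and control groups of a week were taken as the same animal, because 35 samples came from 19 mice.

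Fos proteins do not pair with each other and bind DNA as partners of Jun proteins, whereas Jun proteins can also pair among themselves. In resting skin their genes are held low, and growth factors, cytokines, wounding, ultraviolet light and mechanical stress raise them through mitogen-activated protein kinases and serum response factor. Egr1 and the orphan nuclear receptors Nr4a1 and Nr4a3 belong to the same first wave, and Atf3 to the stress arm of it. Fosl1 is a later member, itself induced by AP-1 and linked to migrating keratinocytes. Ptgs2 encodes cyclooxygenase-2, the inducible enzyme that commits arachidonic acid to prostaglandins in inflamed skin.

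The promoters of 5 of the genes are shown because Fos, Atf3 and Nr4a1 were lower and Nr4a3 and Ptgs2 were higher in week 4 skin that had been radiated. Each run holds 250 bases before and 30 bases after the RefSeq start on GRCm38.p6, 5′ to 3′ on the strand of the gene. Capitals mark TGACG read on either strand (CGTCA on the other), the core of the cyclic AMP response element that Atf, Creb and some Jun dimers bind. The intervals are chr12:85473640-85473919, + strand for Fos, chr1:191183304-191183583, - strand for Atf3, chr15:101266596-101266875, + strand for Nr4a1, chr4:48045055-48045334, + strand for Nr4a3 and chr1:150099781-150100060, + strand for Ptgs2.
Fos: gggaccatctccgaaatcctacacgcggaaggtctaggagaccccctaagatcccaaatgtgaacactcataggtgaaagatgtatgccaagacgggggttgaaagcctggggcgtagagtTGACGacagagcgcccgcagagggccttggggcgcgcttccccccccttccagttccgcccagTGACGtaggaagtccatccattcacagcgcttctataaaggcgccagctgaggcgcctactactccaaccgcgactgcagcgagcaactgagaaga
Atf3: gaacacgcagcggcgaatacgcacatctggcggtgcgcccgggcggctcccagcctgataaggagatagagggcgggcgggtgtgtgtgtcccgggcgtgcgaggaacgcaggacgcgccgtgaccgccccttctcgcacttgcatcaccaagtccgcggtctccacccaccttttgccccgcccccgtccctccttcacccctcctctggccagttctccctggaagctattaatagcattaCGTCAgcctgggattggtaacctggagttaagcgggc
Nr4a1: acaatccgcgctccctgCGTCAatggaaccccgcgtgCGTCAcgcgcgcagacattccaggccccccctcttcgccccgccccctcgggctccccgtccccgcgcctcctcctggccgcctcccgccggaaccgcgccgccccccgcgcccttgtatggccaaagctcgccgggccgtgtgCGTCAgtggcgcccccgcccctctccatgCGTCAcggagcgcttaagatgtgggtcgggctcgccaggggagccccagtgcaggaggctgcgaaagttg
Nr4a3: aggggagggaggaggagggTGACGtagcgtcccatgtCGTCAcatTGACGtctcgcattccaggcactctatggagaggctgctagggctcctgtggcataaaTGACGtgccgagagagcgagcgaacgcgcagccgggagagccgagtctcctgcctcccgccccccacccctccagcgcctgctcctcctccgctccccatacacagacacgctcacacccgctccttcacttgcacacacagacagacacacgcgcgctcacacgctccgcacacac
Ptgs2: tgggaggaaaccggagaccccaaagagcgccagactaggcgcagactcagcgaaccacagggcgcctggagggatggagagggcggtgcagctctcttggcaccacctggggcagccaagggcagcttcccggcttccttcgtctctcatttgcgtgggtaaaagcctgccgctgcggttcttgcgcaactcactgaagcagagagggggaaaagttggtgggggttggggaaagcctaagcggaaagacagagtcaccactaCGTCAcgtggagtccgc

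A promoter was matched for 8 of the 10 genes, the others being Fosl1 and Egr1, and motifs were searched on both strands in 300 bases, from 250 before to 50 after the start. TGACG was found in 7 of these 8 promoters, all but Jun, against 20.8% of 32851 mouse promoters of the same length. Nr4a1 and Nr4a3 each held 4 copies and Fos held 2. The longer TGCGTCA, whose last bases overlap TGACG on the opposite strand, was found in Fosb and Nr4a1 and in 2.12% of all promoters. The full palindrome TGACGTCA was found in 0 of 8 against 1.79%, and the AP-1 motif TGACTCA in 0 of 8 against 5.2%. The CArG box that serum response factor binds was found in 0 of 8 against 1.63%. The TATAAA box was found in Fos and Junb and in 13.6% of all promoters. A match is a stretch of letters and not a measured site. Genes with 4 copies moved in opposite directions at week 4, as the values of Nr4a1 and Nr4a3 show.

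Total counts per sample ran from 17362853 to 28487885. Levels are in CPM, which scales a gene's counts to 1000000 in its library, here after trimmed mean (TMM) scaling between libraries. Keratinocyte, fibroblast, endothelial and macrophage marker genes were present in all groups, since whole skin is a mixture of cell types. In such bulk samples fewer cells of a type and less RNA per cell cannot be told apart. All comparisons between weeks are between different mice, and the labels give no batch or date.

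Between radiated and control skin, calls for the 10 genes were few before week 4 and went both ways. At week 1, 0 of the 10 had an edgeR adjusted p under 0.05, against 0% of all genes tested, and 0 had an unadjusted p under 0.05. At week 2 the count was 0 of 10 against 0.00577% of all genes, with 4 unadjusted p-values under 0.05 and all 10 log2 fold changes above 0. With the mouse as a block, 2 genes passed at week 2: Jun with a log2 fold change of 0.84 (edgeR adjusted p = 0.0297) and Ptgs2 with 1.10 (edgeR adjusted p = 0.0308), and DESeq2 called Jun alone (adjusted p = 0.04996). Over all genes the block called 641 and DESeq2 711 at week 2, against 1 gene without the block in edgeR, so that the added calls among the 10 came with many others. Without radiated replicate 3 of week 2, Fosb, Egr1 and Nr4a1 had log2 fold changes below 0 (-0.17, -0.33 and -0.20). At week 3, 3 of 10 passed, with Ptgs2 higher and Fosb and Fosl1 lower, against 27.2% of all genes and 13.6% in each direction. Leaving out replicate 2 of radiated skin brought the week 3 count to 5, with Atf3 and Nr4a3 added as lower. The week 3 shares above are from the fit with no library left out, and the share of all genes in that refit is not given here.

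At week 4 all 10 genes passed, against 48.4% of all genes tested. The 7 lower genes were Fos, Fosb, Jun, Junb, Atf3, Egr1 and Nr4a1, and the 3 higher genes were Fosl1, Nr4a3 and Ptgs2, with 24.2% of all genes called in each direction. The samples of both groups did not overlap for 6 of the lower genes, all but Junb, against 23.2% of all genes, and for the 3 higher genes against 22.9%. In one fit of all 35 samples 8 of the 10 passed, and Junb and Nr4a1 did not (adjusted p = 0.115 and 0.139 in edgeR). The median log2 fold change over the 10 genes was -1.76 at week 4 and -0.30 at week 3, beside medians over all genes tested of 0.02 and 0.08.

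**Figure D1:**
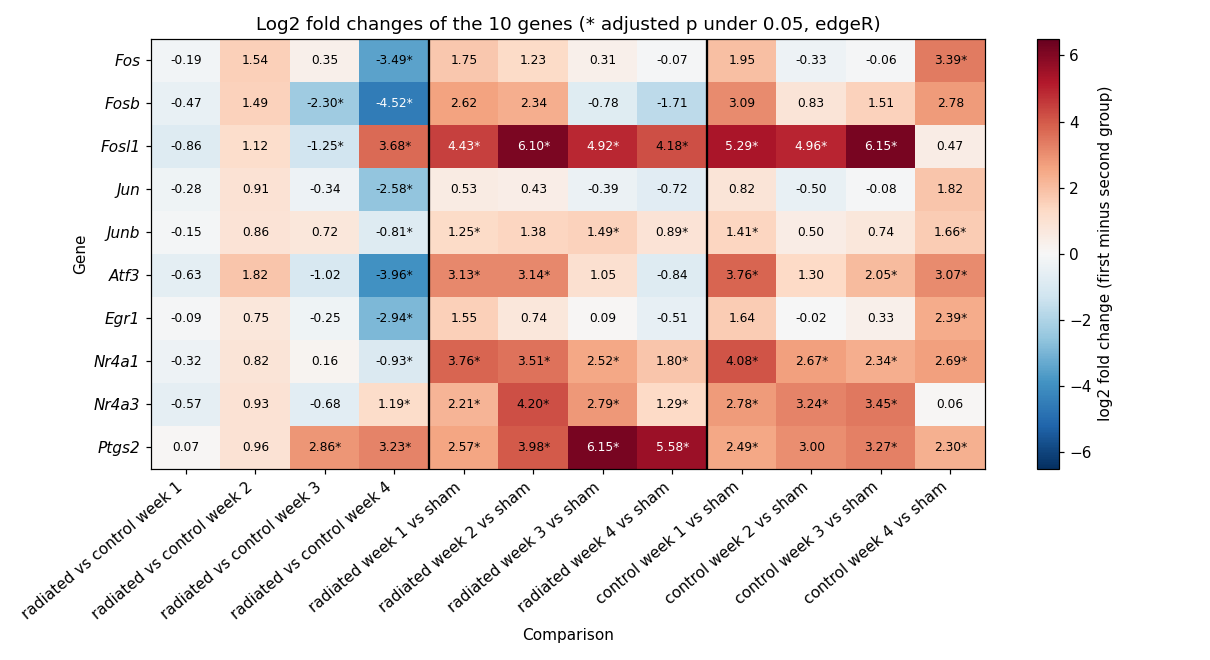
Log2 fold changes of the 10 genes (rows) in the 12 comparisons (columns), with colour from blue (lower in the first group) to red (higher) and an asterisk at an edgeR adjusted p under 0.05. The column for radiated against control skin at week 4 has 10 asterisks, 7 in blue cells and 3 in red cells.

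Fos (chr12:85473890-85477273, + strand, GENCODE M21 on GRCm38), the founding member of the Fos family, had its highest level in control skin of week 4. It measured 512, 2041, 1661 and 1400.3 CPM in the 4 control samples of week 4 and 107, 154, 92.7 and 144 CPM in the 4 radiated samples. Radiated skin was 11.2-fold lower, and no sample of one group reached the other (log2 fold change -3.49 ± 0.39 (SE), edgeR adjusted p = 7.13e-05). Sham skin measured 179.8, 197 and 23.7 CPM, so that radiated skin of week 4 lay within the sham range. Mean levels were 515 ± 526 CPM (SD, n = 4) in control and 449 ± 452 in radiated skin of week 1. They were 107 ± 72.5 and 313 ± 219 at week 2, and 129.6 ± 77.1 and 162 ± 68.4 at week 3. In the order of the 9 group means, control skin of week 2 came lowest and control skin of week 4 highest, and each group overlapped the next in that order. Against sham skin only control skin of week 4 passed (log2 fold change 3.39 ± 0.76 (SE), edgeR adjusted p = 0.0499), and with another set of scaling factors, those of DESeq2's method, its edgeR adjusted p was 0.0515.

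Fosb (chr7:19302696-19310051, - strand), a paralog of Fos, was lower in radiated skin at both late weeks. At week 3 it measured 502, 206, 463 and 608 CPM in control and 63.3, 179, 48.2 and 63.5 CPM in radiated skin, and the groups did not overlap (log2 fold change -2.30 ± 0.47 (SE), edgeR adjusted p = 0.00711). At week 4 it measured 281, 1539, 1462 and 1005 CPM in control and 22.4, 76.7, 34.5 and 52.1 CPM in radiated skin. That was 23.0-fold lower, with the first control sample well below the other 3 but still above every radiated sample (log2 fold change -4.52 ± 0.58 (SE), edgeR adjusted p = 1.64e-04). Sham skin ran unevenly, at 223, 234 and 8.42 CPM, the third sample being far below the others. No group differed from sham skin by the edgeR adjusted p of its own fit, although both groups of week 1 and control skin of week 4 lay wholly above it. Control skin of week 1 did pass with DESeq2 (log2 fold change 3.10, adjusted p = 0.0146) and in one edgeR fit of all 35 samples (adjusted p = 0.0422). Control skin of week 1 had the highest mean of the 9 groups. Week 1 means were 1326 ± 420.0 CPM (SD, n = 4) in control and 954 ± 439 in radiated skin. At week 2 the means were 279 ± 154 and 784 ± 1076 CPM, the latter resting on 1 radiated sample at 2380.1 CPM.

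Fosl1 (chr19:5447547-5455946, + strand), which encodes Fra-1, went the other way. It was low in sham skin, at 1.94, 2.47 and 0.981 CPM, and in control skin of week 4, at 3.34, 3.94, 1.58 and 1.31 CPM. Radiated skin of week 4 held 19.4, 23.5, 42.3 and 42.8 CPM, all above every control sample, a 12.8-fold difference (log2 fold change 3.68 ± 0.41 (SE), edgeR adjusted p = 7.13e-05). A week earlier the order was the reverse, since control skin held 111, 139, 124 and 147 CPM and radiated skin 58.5, 67.4, 69.6 and 18.1 CPM (log2 fold change -1.25 ± 0.36 (SE), edgeR adjusted p = 0.0281). That call was lost without replicate 2 or replicate 4 of the control group (edgeR adjusted p = 0.062 and 0.0682) and in one fit of all 35 samples (adjusted p = 0.11). Means were 71.7 ± 63.2 CPM (SD, n = 4) in control and 39.3 ± 23.7 in radiated skin at week 1, and 57.2 ± 39.7 and 125 ± 86.2 at week 2. Sham skin and control skin of week 4 overlapped each other, and both lay below all samples of the other 7 groups. Fosl1 shares bases with Ccdc85b on the opposite strand, and whether strand was used in counting is not stated.

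Jun (chr4:95049034-95052222, - strand), the main partner of Fos proteins, repeated the pattern of Fos at week 4. Control skin measured 321, 1270.2, 968 and 847 CPM and radiated skin 147, 151, 138 and 132 CPM, 5.97-fold lower with no overlap (log2 fold change -2.58 ± 0.34 (SE), edgeR adjusted p = 2.03e-04). The radiated samples of week 4 were the tightest of the 9 groups, at 142 ± 8.57 CPM (SD, n = 4). They lay below all 3 sham samples, which measured 198, 354 and 169.7 CPM, but the difference did not pass (log2 fold change -0.72 ± 0.24 (SE), edgeR adjusted p = 0.0558). It did pass with total-count scaling (log2 fold change -0.71, edgeR adjusted p = 0.034) and with DESeq2 (adjusted p = 0.0238). At week 3 control skin held 255, 209, 223 and 231 CPM and radiated skin 172, 207, 194 and 139 CPM, apart from each other but short of the threshold (log2 fold change -0.34 ± 0.15 (SE), edgeR adjusted p = 0.121). Means were 424 ± 178 CPM (SD, n = 4) in control and 348 ± 111 in radiated skin at week 1, and 171 ± 32.2 and 324 ± 136 at week 2. The antisense gene Junos overlaps Jun, so reads of the pair may be shared.

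Junb (chr8:84974484-84978718, - strand), a Jun protein that opposes Jun in keratinocyte growth, had the smallest log2 fold change of the 10 at week 4. There control skin measured 137, 355, 324 and 264 CPM and radiated skin 126, 144, 170.3 and 171 CPM, and the groups overlapped (log2 fold change -0.81 ± 0.25 (SE), edgeR adjusted p = 0.0234). The call was lost when control replicate 2, 3 or 4 or radiated replicate 1 or 2 was left out, with edgeR adjusted p-values between 0.0524 and 0.0808. At week 3 radiated skin had the higher mean, 231 ± 62.6 against 143 ± 43.3 CPM (SD, n = 4), without passing (log2 fold change 0.72 ± 0.27 (SE), edgeR adjusted p = 0.0722). It passed without radiated replicate 4 of that week (log2 fold change 0.89, edgeR adjusted p = 0.0234). With libraries scaled by their total count it also passed (log2 fold change 0.94, edgeR adjusted p = 0.0206), where the median over all genes moved from 0.08 to 0.32. Sham skin measured 73.7, 110.2 and 70.5 CPM, the lowest mean of the 9 groups. Control skin had means of 227 ± 95.7 and 121 ± 45.8 CPM (SD, n = 4) at weeks 1 and 2, and radiated skin 203 ± 48.8 and 219.9 ± 174 CPM. Junb overlaps Prdx2 on the other strand.

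**Figure D2:**
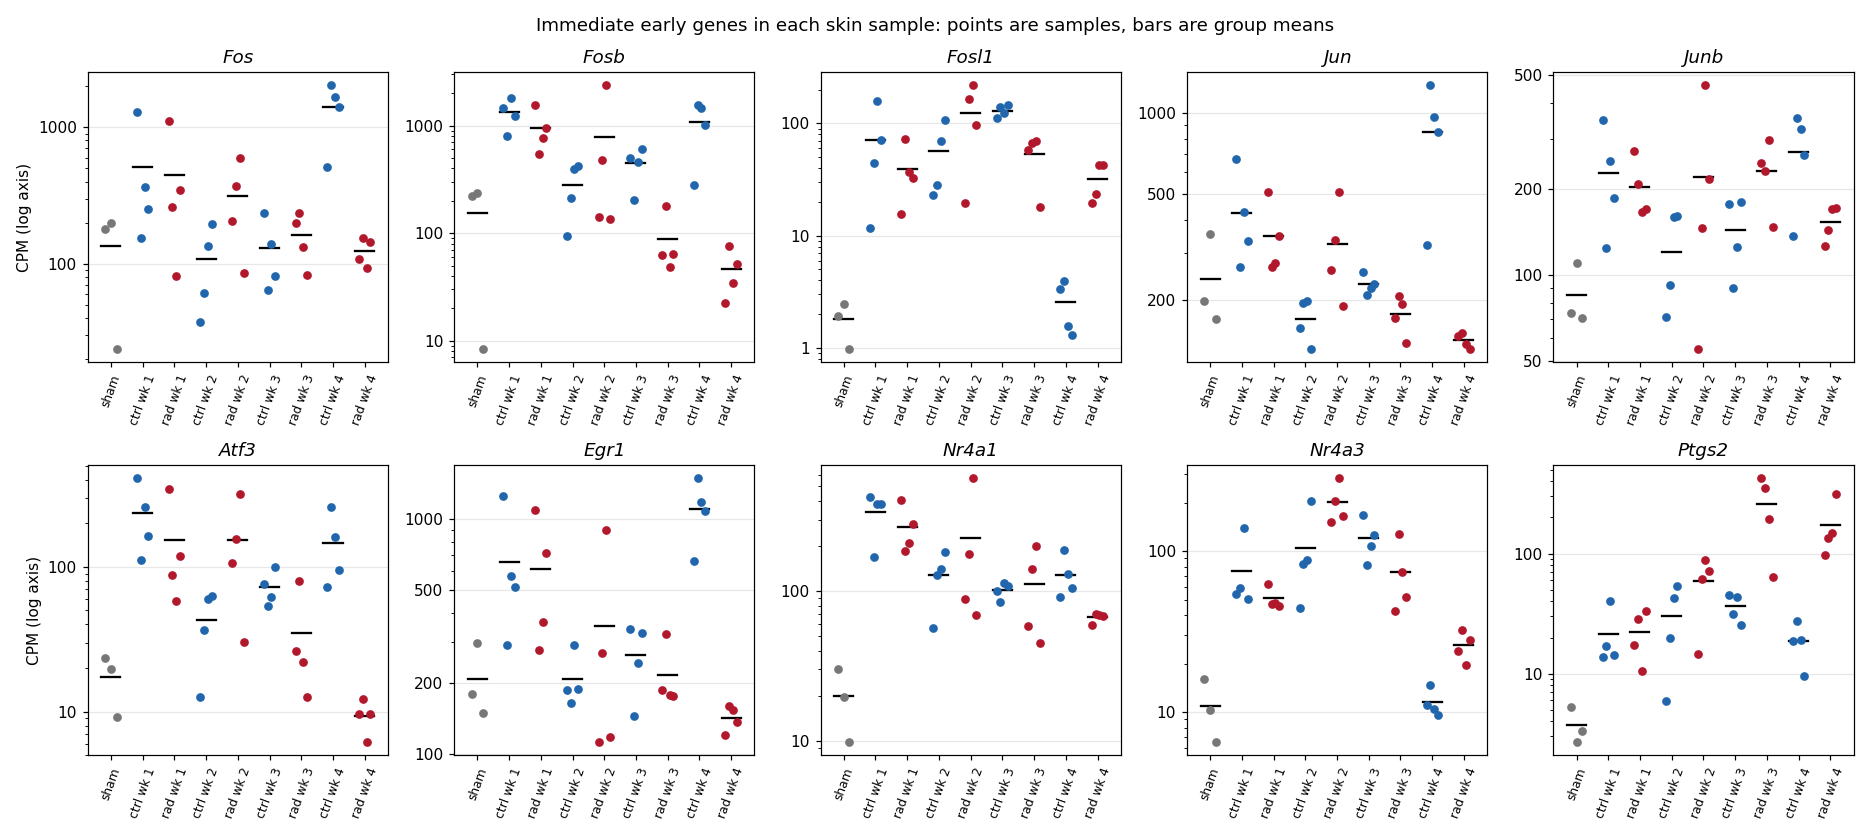
CPM (log axes) of the 10 genes in each of the 35 samples, in grey for sham, blue for control and red for radiated skin by week, with a black bar at each group mean. Control skin of week 4 stands above radiated skin of week 4 for Fos, Fosb, Jun, Atf3 and Egr1 and below it for Fosl1, Nr4a3 and Ptgs2.

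Atf3 (chr1:191170296-191218039, - strand), a stress-induced repressor that pairs with Jun proteins, had the second largest decrease at week 4 after Fosb. Control skin measured 73.0, 258, 162 and 95.5 CPM and radiated skin 9.60, 12.2, 6.16 and 9.64 CPM, 15.5-fold lower (log2 fold change -3.96 ± 0.41 (SE), edgeR adjusted p = 4.57e-05). Sham skin measured 23.3, 19.6 and 9.19 CPM, which the radiated values of week 4 overlapped. Radiated skin of weeks 1, 2 and 3 held 152 ± 131, 153 ± 123 and 35.1 ± 30.0 CPM (SD, n = 4), all higher means than at week 4. Control skin held 236 ± 131, 43.1 ± 23.6 and 72.8 ± 20.4 CPM at weeks 1, 2 and 3. At week 3 the difference did not pass (log2 fold change -1.02 ± 0.50 (SE), edgeR adjusted p = 0.151), but it did without radiated replicate 2, which measured 79.3 CPM (log2 fold change -1.81, edgeR adjusted p = 0.00762). Atf3 overlaps the small gene Gm24748 on the other strand.

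Egr1 (chr18:34859823-34864984, + strand), a zinc finger factor driven by serum response factor, had the smallest p of the 10 genes at week 4. Control skin measured 663, 1486, 1177 and 1078 CPM and radiated skin 120.3, 160.2, 154 and 137 CPM, 7.68-fold lower and without overlap (log2 fold change -2.94 ± 0.23 (SE), edgeR adjusted p = 8.66e-06). Sham skin measured 180.4, 298 and 149 CPM, and control skin of week 4 was the one group that passed against it in edgeR (log2 fold change 2.39 ± 0.33 (SE), edgeR adjusted p = 0.0151). DESeq2 also called radiated and control skin of week 1 higher (adjusted p = 0.00725 and 0.0378). Radiated skin of week 4 had the lowest mean of the 9 groups. Weeks 1, 2 and 3 gave control means of 656 ± 413, 208 ± 56.0 and 264 ± 89.8 CPM (SD, n = 4). The radiated means of those weeks were 613 ± 372, 350.1 ± 373 and 217 ± 72.6 CPM, and no difference passed.

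Nr4a1 (chr15:101254269-101274795, + strand) and Nr4a3 (chr4:48045153-48086447, + strand) encode nuclear receptors of one family, known also as Nur77 and Nor-1, and they parted at week 4. Nr4a1 measured 91.1, 189, 129 and 105 CPM in control and 59.6, 70.6, 68.9 and 68.6 CPM in radiated skin of week 4, 1.91-fold lower (log2 fold change -0.93 ± 0.20 (SE), edgeR adjusted p = 0.00352). Nr4a3 measured 11.0, 14.8, 10.5 and 9.61 CPM in control and 24.1, 32.3, 19.7 and 27.9 CPM in radiated skin, 2.28-fold higher (log2 fold change 1.19 ± 0.18 (SE), edgeR adjusted p = 5.11e-04). Neither pair of groups overlapped. Sham skin was low for both genes, at 30.1, 19.6 and 9.81 CPM of Nr4a1 and 16.0, 10.3 and 6.51 CPM of Nr4a3. Nr4a1 was higher than sham skin in 8 of 8 comparisons and Nr4a3 in 7 of 8, the exception being control skin of week 4 (log2 fold change 0.06 ± 0.29 (SE), edgeR adjusted p = 0.926). Nr4a1 means were highest at week 1, at 338 ± 115 CPM (SD, n = 4) in control and 269.5 ± 97.8 in radiated skin. They were 127 ± 52.6 and 225 ± 232 CPM at week 2 and 101.5 ± 12.6 and 111 ± 73.1 at week 3. Nr4a3 means were highest in radiated skin of week 2, at 201 ± 59.1 CPM against 105 ± 69.0 in control skin. They were 75.7 ± 42.7 and 50.7 ± 8.03 CPM in control and radiated skin of week 1, and 121 ± 35.6 and 73.8 ± 38.0 at week 3.

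Ptgs2 (chr1:150100031-150108227, + strand) was the one gene of the 10 that was higher in radiated skin at both late weeks. At week 3 control skin held 45.5, 31.6, 43.3 and 25.6 CPM and radiated skin 424, 354, 194 and 63.6 CPM, 7.25-fold higher (log2 fold change 2.86 ± 0.51 (SE), edgeR adjusted p = 0.0044). At week 4 control skin held 18.5, 27.5, 19.2 and 9.57 CPM and radiated skin 98.3, 135, 149 and 312 CPM, 9.36-fold higher (log2 fold change 3.23 ± 0.41 (SE), edgeR adjusted p = 1.63e-04). Neither week had overlapping groups, and both calls held without any 1 of the 8 libraries of the week. Sham skin was lower than all 32 other samples, at 5.26, 2.69 and 3.31 CPM. Weeks 1 and 2 gave 21.3 ± 12.7 and 30.5 ± 21.6 CPM (SD, n = 4) in control skin and 22.3 ± 10.2 and 59.2 ± 31.9 in radiated skin. In CPM its samples were widest apart in radiated skin of week 3, from 63.6 to 424, and as a ratio in control skin of week 2, from 5.89 to 53.4.

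Whether the radiated minus control difference changed over the 4 weeks was tested with an F test of the week terms in 1 edgeR model of the 32 radiated and control libraries. It passed for 8 of the 10 genes, against 15.6% of all genes. Jun had the smallest adjusted p (6.70e-05 in edgeR), followed by Atf3 and Fosb, and Junb and Nr4a1 did not pass (edgeR adjusted p = 0.115 and 0.261). Without the mice numbered 3 the count was 4 genes (Fosb, Jun, Atf3 and Egr1) while that over all genes went from 3013 to 960, and Fos, Fosl1, Nr4a3 and Ptgs2 had edgeR adjusted p-values of 0.0811, 0.0597, 0.138 and 0.183. Without the mice numbered 2, Fos (0.0726) and Ptgs2 (0.0873) did not pass by that adjusted p. Without those numbered 1, Nr4a3 did not pass (edgeR adjusted p = 0.054) and Junb did (0.0476).

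Against sham skin, the edgeR calls for these genes, with TMM scaling and all libraries kept, were toward higher levels. In radiated skin 6, 5, 5 and 5 of the 10 genes passed at weeks 1, 2, 3 and 4, against 0.543%, 2.16%, 10.4% and 15.2% of all genes called higher. In control skin 6, 3, 5 and 6 passed, against 3.28%, 1.37%, 5.18% and 1.76%. These 8 comparisons share the same 3 sham libraries. Over them, Nr4a1 passed 8 times, Fosl1, Nr4a3 and Ptgs2 7 times each, Junb and Atf3 5 times each, Fos and Egr1 once each and Fosb and Jun 0 times, all by the edgeR adjusted p. DESeq2 called 7, 5, 5 and 6 of the 10 in radiated and 8, 5, 6 and 7 in control skin, with Jun in radiated skin of week 4 as its 1 call toward lower levels. It called Jun in both skins of week 4, Egr1 3 times and Fosb once over the 8 comparisons. The shares above are of edgeR and cannot be set beside these DESeq2 counts. In control skin of week 2 DESeq2 called 1899 of all genes in either direction, against 245 called higher by edgeR. At week 4 the genes that passed differed between the skins: Fosl1, Junb, Nr4a1, Nr4a3 and Ptgs2 in radiated skin, and Fos, Junb, Atf3, Egr1, Nr4a1 and Ptgs2 in control skin.

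The counts against sham skin leaned on single libraries. The shares of all genes above are from fits with every library kept, and those of the refits are not given here. All 5 calls in control skin of week 3 held without any 1 library, as did 4 of 5 in radiated skin of week 3 and of week 4. By contrast 0 of 6 calls held throughout in each skin at week 1, 1 of 5 (Nr4a3) in radiated and 0 of 3 in control skin of week 2, and 0 of 6 in control skin of week 4. Sham replicate 3 had the lowest Fos, Fosb, Fosl1, Jun, Junb, Atf3, Egr1, Nr4a1 and Nr4a3 of its group. Only Ptgs2 was lower in another sham library, replicate 2. Without sham replicate 3 the count was 9 in radiated skin of week 4, with Fosb, Jun, Atf3 and Egr1 lower than sham skin (log2 fold changes -2.26, -0.93, -1.16 and -0.71). Without it, too, the counts were 3 and 1 in radiated skin of weeks 1 and 2 and 0, 0 and 1 in control skin of weeks 1, 2 and 4. Without sham replicate 2 the counts were 2 in radiated skin of week 2 and 0, 0 and 1 in those same control groups. Without sham replicate 1 the count was 3 in radiated skin of week 2. Among radiated samples, the count at week 1 was 0 without replicate 3 and 3 without replicate 4, and at week 2 it was 3 without replicate 2 or replicate 3. Among control samples, it was 2, 1 and 0 at week 1 without replicates 2, 3 and 4. It was 0 at week 2 without replicate 2, 3 or 4 and 5 without replicate 1, and 0 at week 4 without replicate 2, 3 or 4.

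Per kilobase of exon the genes could be ranked within a group. Fos stood first in control skin of week 4 at 597 CPM per kb, followed by Jun at 267 and Egr1 at 246, and Fosl1 was last at 1.25. In radiated skin of week 4 Junb came first at 66.4 CPM per kb, then Fos at 53.0, Jun at 44.5 and Ptgs2 at 37.9. In sham skin Jun led at 75.4 CPM per kb and Ptgs2 was last at 0.819. The step from control to radiated skin of week 4 thus took Ptgs2 from the eighth to the fourth place of the 10.

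Marker genes of other cell types also differed between radiated and control skin, where 13.6% of all genes were higher and 13.6% lower at week 3 and 24.2% each way at week 4. Of 6 neutrophil markers, Csf3r and Cxcr2 passed the filter on low counts in both groups and were higher at weeks 3 and 4. S100a8, S100a9 and Mmp8 needed radiated skin to pass it, so their calls are not counted here. Csf3r averaged 123 and 99.9 CPM in radiated skin of weeks 3 and 4, against 3.63 and 2.92 CPM in control skin. Cxcr2 averaged 79.4 and 74.7 CPM in radiated skin, against 7.98 and 7.67 CPM in control skin. The granulocyte marker Ly6g was low, at 2.13 ± 4.13 CPM (SD, n = 4) in radiated and a mean of 0.057 CPM in control skin of week 3. At week 4 its means were 0.490 CPM in radiated and 0 CPM in control skin. All 6 macrophage markers were higher in radiated skin at week 4, where they summed to 924 to 1279.6 CPM against 149 to 239 CPM in control skin. At week 3, 4 of the 6 macrophage markers were higher, with sums of 769 to 1973 CPM against 279 to 773 CPM. Of 6 fibroblast markers, 6 were higher at week 4, with sums of 27913 to 47074 CPM against 2207 to 4635 CPM. At week 3, 1 of the 6 fibroblast markers was higher, with sums of 11945 to 21322 CPM against 2062 to 12031 CPM. Of 7 skeletal muscle markers, 6 were lower in radiated skin at week 3 and 5 at week 4, with week 4 sums of 2111 to 4842 CPM in radiated skin. In the 4 control samples of week 4 the muscle sums were 1747, 16900.2, 12004 and 26641 CPM. The first of these samples also had the lowest Fos, Fosb, Jun, Junb, Atf3, Egr1 and Nr4a1 of its group. Between weeks this order was not kept, since control skin had mean muscle sums of 35245.5, 42052, 31103 and 14323 CPM at weeks 1, 2, 3 and 4. Fos averaged 515, 107, 129.6 and 1404 CPM in those 4 groups. Of 6 keratinocyte markers, 4 were lower and Krt14 higher at week 4, with sums of 11088 to 15941 CPM against 21218 to 23645 CPM. Hair follicle markers summed to 18.7 to 5706 CPM in radiated and 20.9 to 32.5 CPM in control skin of week 4, but to 2081 to 32932 CPM in sham skin. The part of these cell types in the results of the 10 genes was not tested.

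Across samples the 10 genes moved together to different degrees, described here with no test, since all points share the same libraries and groups. Over the 35 samples, log2 CPM of Fos, Fosb, Jun, Atf3 and Egr1 had Pearson correlations from 0.70 to 0.91 with each other. Between those 5 genes and Fosl1, Nr4a3 and Ptgs2 the correlations ran from -0.35 to 0.36. Fosl1 and Nr4a3 had 0.87 with each other, and Ptgs2 had 0.58 with Fosl1 and 0.39 with Nr4a3. With group means taken out, so that only samples of one group were compared, the first 5 genes still had 0.65 to 0.85, and the cross values ran from -0.05 to 0.65. Nr4a1 and Junb lay between, with 0.48 to 0.79 and 0.51 to 0.68 to those 5 genes over all samples and 0.62 to 0.80 and 0.54 to 0.73 with group means taken out. Whether the 10 genes form separate sets was not tested, and these groupings were chosen after their values were seen.

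**Figure D3:**
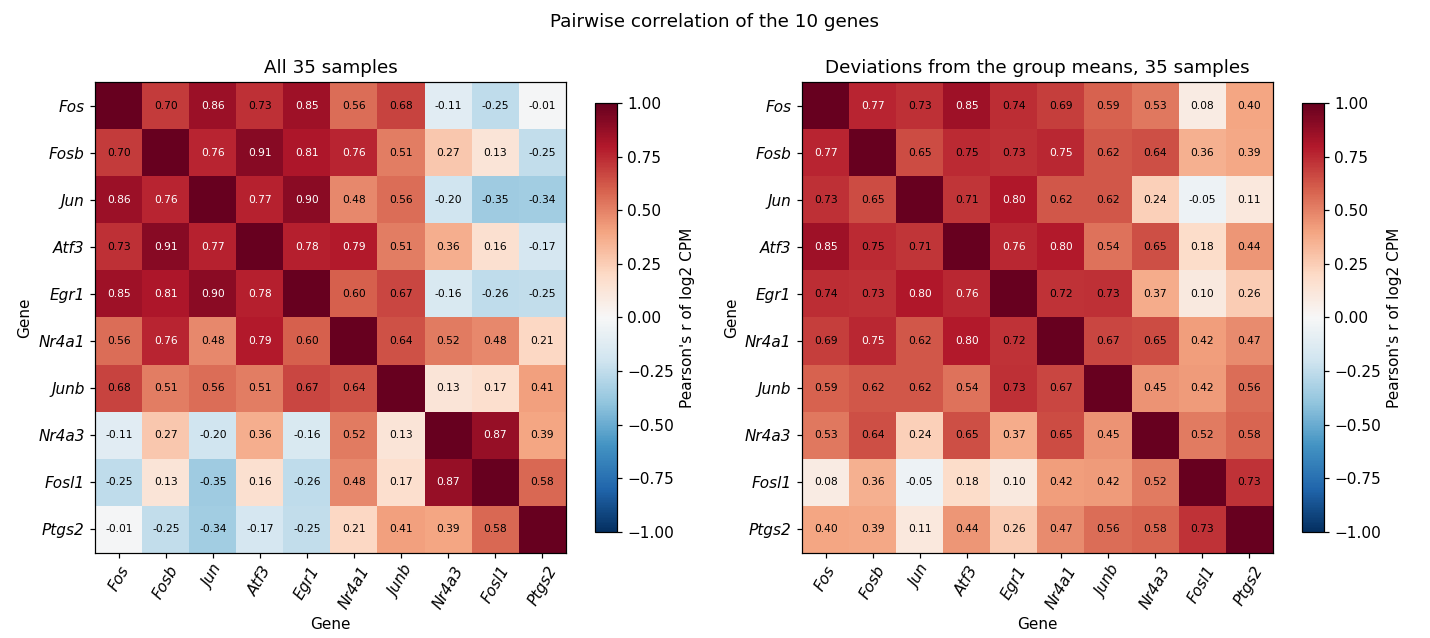
Pearson correlation of log2 CPM for each pair of the 10 genes over 35 samples, across all samples (left) and after subtracting each group's mean (right), from blue (-1) to red (1). The block of Fos, Fosb, Jun, Atf3 and Egr1 is dark red in both panels, from 0.70 to 0.91 and from 0.65 to 0.85.

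Among 12532 genes averaging 5 CPM or more, those most like each member were found by Spearman's rho over the 35 samples, again as a description. Fos was most like Btg2 (0.91), an antiproliferative early gene, and Dusp1 (0.80), a phosphatase of mitogen-activated kinases. Fosb was most like the kinase gene Sik1 (0.91) and Atf3 (0.91), and Atf3 in turn like Fosb and Sik1 (0.87). Egr1 was most like Ier2 (0.89), an early gene, and Fosb (0.87). Jun was most like Pdzrn4 (0.89) and Cited2 (0.88), and Junb like Zfp36 (0.88), which encodes an mRNA decay factor, and Ppp1r15a (0.78). Nr4a1 was most like Nfkbia (0.88), the NF-kB inhibitor, and the clock gene Per1 (0.87). Nr4a3 was most like Arc (0.87) and Ifrd1 (0.85). Fosl1 was most like Tnfrsf12a (0.95), the receptor of TWEAK, and Atf4 (0.93), the factor of the integrated stress response. Ptgs2 was most like Gm9973 (0.94), a transcribed pseudogene on chr13, and Tes (0.92).

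Related gene lists were counted in the same comparisons, in which 13.6% of all genes were higher and 13.6% lower at week 3, and 24.2% were higher and 24.2% lower at week 4. Of 15 other AP-1 subunits and Maf or Batf relatives tested at week 4, 8 were higher and 4 lower in radiated skin, the lower share being near that of all genes. Without 2 of them (Batf2 and Batf3) that passed the low-count filter through radiated skin alone, 7 of 13 were higher. At week 3 the counts were 3 and 5, the higher share being the nearer to that of all genes. Fosl2, which encodes Fra-2, was higher at week 3 (713 ± 123 against 447 ± 77.5 CPM, SD, n = 4, log2 fold change 0.70 ± 0.18 (SE), edgeR adjusted p = 0.0209) and at week 4 (log2 fold change 0.33 ± 0.07 (SE), edgeR adjusted p = 0.00491). Jund, the Jun gene least tied to acute stimuli, was lower at both weeks, with log2 fold changes of -0.95 and -1.29. Batf and Jdp2 rose at week 4, by 2.29 and 1.46 on the log2 scale. Mafk fell by 1.18 and 1.04 on the log2 scale at weeks 3 and 4.

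Other immediate early genes split at week 4 into 9 higher and 14 lower of 30 tested, with a median log2 fold change of -0.43. At week 3 they split into 6 higher and 7 lower. Of all genes, 24.2% were called each way at week 4 and 13.6% each way at week 3. The higher share of the list was the nearer to that of all genes at both weeks. Ier2, Zfp36 and Klf4 had the largest falls at week 4, by 2.03, 1.70 and 1.66 on the log2 scale. Dusp1, a feedback phosphatase, measured 113 ± 20.7 CPM in radiated and 313 ± 109 CPM in control skin (SD, n = 4), a log2 fold change of -1.47 ± 0.26 (SE, edgeR adjusted p = 0.00126). The third Nr4a receptor gene, Nr4a2, rose with Nr4a3, by 1.73 on the log2 scale. Ier3 rose at both weeks, with log2 fold changes of 1.09 and 1.48, and Dusp2 rose at week 3 from 1.12 CPM in control skin. Without Dusp2, which passed the low-count filter at week 4 through radiated skin alone, 8 of 29 genes were higher at that week.

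Of 15 kinases and factors upstream of these genes, 3 were higher and 4 lower at each of weeks 3 and 4. Those 7 calls stand beside 27.2% of all genes called in either direction at week 3 and 48.4% at week 4, the latter close to the share of the list. The ternary complex factor gene Elk3, a partner of serum response factor, rose most, by 2.19 and 2.31 on the log2 scale. Map2k1, which encodes MEK1, rose by 0.77 and 0.88 on the log2 scale. Elk3 is also expressed in blood vessels. Endothelial markers were higher for 3 and 5 of 5 genes at weeks 3 and 4, against 13.6% and 24.2% of all genes. The part of blood vessels in the rise of Elk3 was not tested.

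Genes known as AP-1 targets were mostly higher in radiated skin at both late weeks. Of the 14 listed, 10 reached the low-count filter (0.488 CPM at week 3, 0.445 CPM at week 4) in all 4 libraries of both groups at week 3, and 7 of these were higher and 0 lower, with a median log2 fold change of 1.25. At week 4, 9 did so and all 9 were higher, with a median of 2.02. The others, Mmp10, Mmp13, Timp1 and Il6 at both weeks and Spp1 at week 4, needed radiated skin to pass the filter, so their calls are left out of these counts. Mmp13, a collagenase, averaged 57.1 ± 7.42 CPM in radiated skin of week 4 and Mmp10, a stromelysin, 19.4 ± 7.40 CPM (SD, n = 4). In control skin both were under 3 counts per library on average, and these levels are given with no test. Timp1, an inhibitor of metalloproteinases, averaged 35.9 ± 8.74 CPM in radiated and 0.187 ± 0.217 CPM in control skin of week 4, given as levels with no test. Several of these targets are also made by neutrophils, macrophages or fibroblasts, whose markers are given above, and the list was chosen with earlier results of these data known.

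Around Ptgs2, the prostaglandin pathway showed 4 genes higher and 4 lower of 15 tested at week 3. At week 4, 6 were higher and 4 lower, or 5 and 4 of the 13 that passed the low-count filter in both groups. Beside them, 13.6% of all genes were called in each direction at week 3 and 24.2% at week 4. The lower share of the list at week 4 was near that of all genes. Ptges, the inducible prostaglandin E synthase that acts after cyclooxygenase, averaged 139 ± 53.9 CPM in radiated and 64.9 ± 10.1 CPM in control skin of week 3 (SD, n = 4, log2 fold change 1.13 ± 0.27 (SE), edgeR adjusted p = 0.0136). Ptgs1, the constitutive cyclooxygenase, fell by 1.27 on the log2 scale at both weeks. The receptor genes Ptger2 and Ptgir rose by 1.73 and 1.86 on the log2 scale at week 4, and Ptger3 and Ptger4 fell by 0.75 and 0.54.

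Heat shock genes, which handling of tissue can also induce, were counted beside the early genes. Of 10 tested, 0 were higher and 4 lower at week 3, and 1 was higher and 5 lower at week 4. The shares of all genes were 13.6% each way at week 3 and 24.2% each way at week 4. Hspa1a fell by 1.504 and 1.86 on the log2 scale at weeks 3 and 4 and Hspa1b by 1.07 and 1.39, in the same direction as Fos, Jun and Egr1 at week 4. Hspa8, the constitutive member, was higher at week 4 by 0.47 on the log2 scale. Summed over the list, control skin of week 4 held 2092 to 2236 CPM and radiated skin 1968 to 2277 CPM, so the sums overlapped. At week 3 they did not, with 2849 to 3405 CPM in control and 1439 to 2449 CPM in radiated skin. The part of handling in the levels of the 10 genes was not tested.

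**Figure D4:**
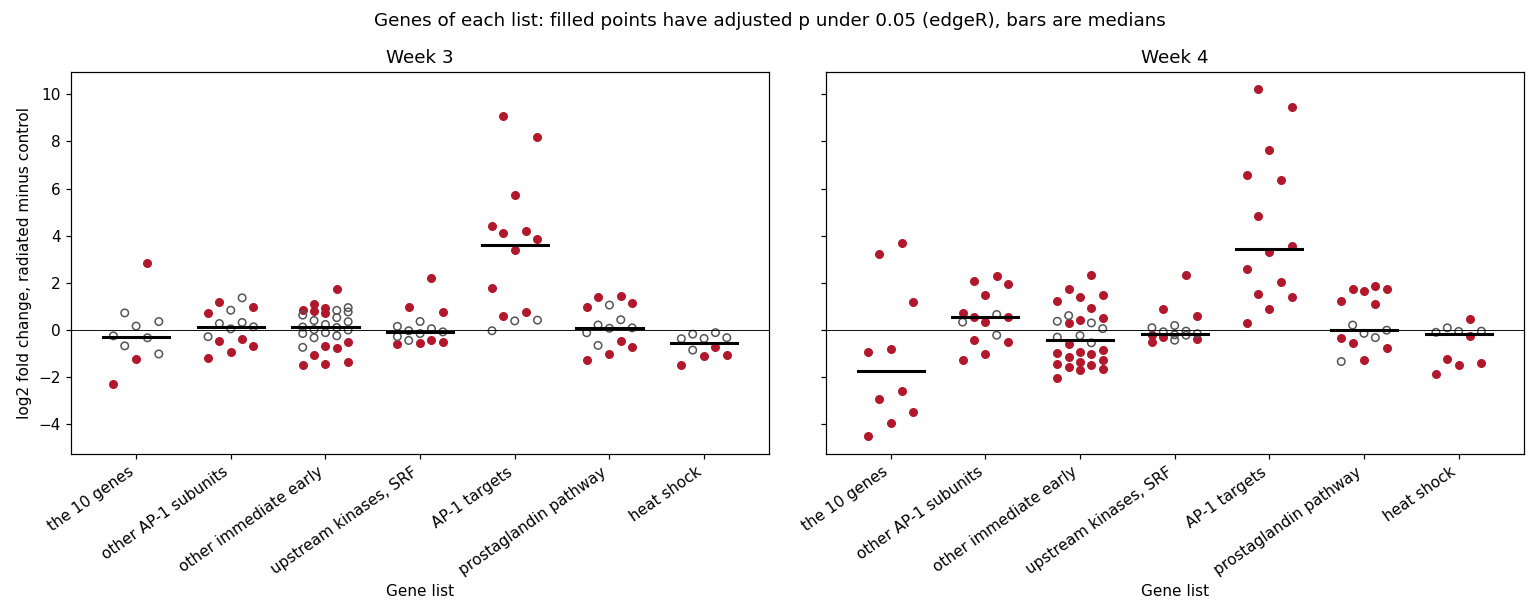
Log2 fold change of radiated minus control skin for each gene of 7 lists at weeks 3 and 4, with filled points at an edgeR adjusted p under 0.05, open points above it and bars at list medians. The 10 genes span -4.52 to 3.68 at week 4, with 3 above 0 and 7 below. All genes tested are plotted, also those that passed the low-count filter through radiated skin alone. The AP-1 target bars thus lie at 3.61 and 3.44, where the text gives 1.25 and 2.02 without those genes.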

How the data were processed

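Bulk RNA sequencing covered 35 skin samples from 19 mice. Per the submitters' processing notes, reads were handled with Trim Galore 0.6.7 and kallisto 0.46.2 on mm10, and per the labels' protocols Kallisto and DESeq2 were used; the annotation, strand setting and the step from transcripts to genes are not given in the sources used here. The authors deposited estimated counts per gene, unscaled between samples; between 29.5% and 32.5% of the estimates in each library had decimals, and all were rounded to whole numbers. With 3 counts taken as the floor, intervals and floors cover counting error only.

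Each of 12 comparisons was fitted on its own groups with edgeR 4.0.16 (R 4.3.3): filterByExpr, TMM factors, the quasi-likelihood F test and Benjamini-Hochberg adjustment over all genes tested, at 0.05. The SE is the size of the log2 fold change divided by the square root of F. CPM are on TMM-scaled libraries. The procedure was tested on simulated data. Alternatives were total-count scaling, RLE factors, no filter, DESeq2 1.42.0, one fit of 35 samples, a replicate block and 92 refits that each left out 1 replicate. Every same-numbered pair of radiated and control samples deviated together at week 2 (correlations from 0.115 to 0.228); at weeks 1, 3 and 4 the lowest pair was below 0 (-0.0016, -0.044 and -0.057) and the means were 0.070, 0.053 and -0.021; the labels do not state the pairing. No libraries were identical.

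The members and lists were chosen with earlier results of these data known. All 10 members were named whatever their values, as were Fosl2, Jund and Dusp1; of each other list, at most the 3 largest rises and 3 largest falls with an adjusted p under 0.05 and a mean of at least 1 CPM. Gene positions are from GENCODE M21 (GRCm38) and promoters from RefSeq (GRCm38.p6). Some genes of the lists are counted but not reported by name here. Counts over the list genes that reached the filter's minimum in all 4 libraries of both groups were added after the data were seen.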

Additional observations from a re-analysis of the deposited data

Results flagged for a closer look

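Single samples stood apart from the other 3 of their group by Dixon's criterion on log2 CPM in 6 of 80 sets of 4 samples (7.5%), where chance gives about 1 in 20. Fosl1 measured 18.1 CPM in radiated week 3 replicate 4, below the others at 58.5 to 69.6 CPM. Egr1 measured 326 CPM in radiated week 3 replicate 2, above the others at 176 to 188 CPM. Nr4a1 measured 169 CPM in control week 1 replicate 2, below 380.1 to 423 CPM, and 59.6 CPM in radiated week 4 replicate 1, below 68.6 to 70.6 CPM. Nr4a3 measured 139 CPM in control week 1 replicate 3, above 50.03 to 58.7 CPM, and 62.7 CPM in radiated week 1 replicate 1, above 45.6 to 47.7 CPM.

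The radiated minus control difference changed over the 4 weeks for 8 of the 10 genes in the edgeR F test of the week terms. The edgeR adjusted p was 0.00512 for Fos, 0.000853 for Fosb, 0.00178 for Fosl1 and 6.70e-05 for Jun. It was 0.000808 for Atf3, 0.00403 for Egr1, 0.0126 for Nr4a3 and 0.0167 for Ptgs2.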

How the results depend on the processing

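Of 77 recomputed counts of the 10 genes outside the refits that left out a replicate, 71 stayed within 1.5 times of the main count. For radiated against control skin of week 2 the count was 1 with DESeq2 and 2 with the replicate block, which called 711 and 641 of all genes against 1 in the main edgeR test. The block changed no other call between radiated and control skin. With the block against sham skin, where a number joins different mice, the count was 0 in control skin of weeks 1 and 2 and 1 at week 4 (0, 1 and 97 of all genes), and DESeq2 gave 5 at week 2 (1899 of all genes). Leaving out 1 replicate gave counts of 2 to 5 for radiated against control skin of week 3 and 4 to 8 for the change over weeks. Against sham skin the ranges were 0 to 6, 1 to 6 and 4 to 9 in radiated skin of weeks 1, 2 and 4. They were 0 to 6, 0 to 5 and 0 to 7 in control skin of weeks 1, 2 and 4.

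Single log2 fold changes kept direction and side of the threshold in 665 of 720 recomputations outside those refits and in 722 of 880 within them. Those that changed sign were all short of the threshold. Total-count scaling gave 0.0015 for Egr1 (radiated vs control week 1). The replicate block gave -0.089 for Nr4a1 (radiated vs control week 3), 0.034 for Fosb (radiated week 3 vs sham), 0.28 for Fos (radiated week 4 vs sham), 0.048 for Egr1 (control week 2 vs sham) and 0.40 for Fos (control week 3 vs sham). RLE factors gave 0.012 for Egr1 (control week 2 vs sham). No low-count filter gave 0.010 for Egr1 (control week 2 vs sham). DESeq2 gave 0.013 for Egr1 (control week 2 vs sham). Leaving out 1 replicate gave ranges that crossed 0. For radiated vs control week 1 they were -1.17 to 0.83 for Fos, -0.52 to 0.040 for Jun, -0.36 to 0.13 for Junb, -0.53 to 0.43 for Egr1 and -0.18 to 0.57 for Ptgs2. For radiated vs control week 2 they were -0.17 to 1.83 for Fosb, -0.33 to 1.04 for Egr1 and -0.20 to 1.11 for Nr4a1. For radiated vs control week 3 they were -0.29 to 0.42 for Nr4a1. For radiated week 2 vs sham they were -0.33 to 1.09 for Egr1. For radiated week 3 vs sham they were -0.16 to 0.48 for Egr1, -0.61 to 0.034 for Jun and -0.20 to 0.75 for Fos. For radiated week 4 vs sham they were -0.57 to 0.33 for Fos. For control week 2 vs sham they were -0.23 to 0.34 for Egr1 and -0.80 to 0.081 for Fos. For control week 3 vs sham they were -0.55 to 0.33 for Fos and -0.27 to 0.30 for Jun. For control week 4 vs sham they were -0.19 to 0.44 for Nr4a3. Total-count scaling moved the median over all tested genes from 0.08 to 0.32 for radiated against control skin of week 3. The cause of these changes was not tested.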
